A study of Mus musculus with 12 samples.

Results

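The miRNAs described here are the 4 main products of the miR-10 and miR-196 hairpins, mmu-miR-10a-5p, mmu-miR-10b-5p, mmu-miR-196a-5p and mmu-miR-196b-5p (written below without the prefix for mouse), measured in striatum. They were chosen by their mature names and filled 5 of the 2059 rows of the count tables, or 4 of 1915 mature names. All 4 had at least 1 count in each of the 12 libraries. With the main tests no member passed after adjustment, in 7 comparisons of genotype and virus for miR-10a-5p, miR-10b-5p and miR-196b-5p and in 6 for miR-196a-5p. miR-10a-5p, lower in R6/2 mice than in wild type, passed between the genotypes with DESeq2 (adjusted p = 0.0169) and without the expression filter (edgeR adjusted p = 0.0431). In that contrast the main test called 158 of 689 miRNAs (22.9%). The 6 other settings, these 2 among them, called 127 to 186. Without 1 library the log2 fold change of miR-10a-5p ran from -1.82 to -0.57. Levels of miR-10a-5p, miR-10b-5p and miR-196b-5p differed more between replicates of a group than those of most miRNAs of like abundance. From library to library miR-10a-5p followed the summed level of a list of miRNAs of microglia and inflammation.

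The libraries formed 4 groups of 3: wild type (WT) mice with a control adeno-associated virus (AAV), WT mice with an AAV carrying a short hairpin RNA against TRAX (shTRAX), R6/2 mice with the control AAV, and R6/2 mice with the shTRAX AAV. R6/2 mice carry a transgene with exon 1 of human huntingtin and are a model of Huntington's disease. TRAX, the product of Tsnax, joins translin to form an RNA-binding complex that also cuts RNA. Every animal group, controls included, had AAV injected into the striatum on both sides at 5 weeks and was sampled at 10.5 weeks of age, and all samples are labelled with the strain B6CBAFI/J. The labels give no promoter for the hairpins and do not name the cells that the virus reached. Whether replicates are separate animals is not said, so each p-value reflects the spread between samples, which may be technical. Tsnax mRNA is not part of miRNA data, so the knockdown was not checked here.

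miRNAs are short RNAs that guide Argonaute proteins to messenger RNAs, mainly through the seed, bases 2 to 8 of the miRNA. The miR-10 and miR-196 genes lie inside the Hox clusters, which set position along the head to tail axis of the embryo, and several Hox transcripts are among their known targets. Like the Hox genes around them they are active in the hindbrain, the spinal cord and more posterior tissue, and they are low in forebrain. In post-mortem cortex of people with Huntington's disease, miR-10b-5p, miR-196a-5p and miR-196b-5p have been reported as higher than in controls, together with miR-615-3p and miR-1247-5p.

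The mature sequences are shown because each family shares 1 seed and its members are told apart by a single base. They are taken from RefSeq (GRCm38.p6), run from 5′ to 3′, and have the seed in capitals.
miR-10a-5p: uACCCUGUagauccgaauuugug
miR-10b-5p: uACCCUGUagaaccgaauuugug
miR-196a-5p: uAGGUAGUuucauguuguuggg
miR-196b-5p: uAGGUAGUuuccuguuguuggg
Counted from 1 at the 5′ end, miR-10b-5p differs from miR-10a-5p by U12A. The substitution from miR-196a-5p to miR-196b-5p is A12C. How the authors assigned reads that could come from either is not given in the sources used here, so some counts may have been exchanged between miR-10a-5p and miR-10b-5p or between miR-196a-5p and miR-196b-5p, and the lower member of each family is the more exposed. The sequence relatives of miR-10 outside the Hox clusters were further away, since miR-100-5p is 3 edits from miR-10a-5p and miR-99a-5p is 4.

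In GRCm38.p6 the Mir10a hairpin lies on the plus strand at chr11:96317165-96317274, in no annotated Hox gene and 993 bp from Hoxb4. Mir10b, at chr2:74726070-74726137 on the plus strand, lies in an intron of the gene models of Hoxd3 and Hoxd4. miR-196a-5p comes from 2 hairpins of identical mature sequence. These are Mir196a-1 at chr11:96265164-96265265, 6192 bp from Hoxb9 and in no annotated Hox gene, and Mir196a-2 at chr15:102973350-102973434, in an intron of the Hoxc5 gene model and 1457 bp from Hoxc10. Both are on the plus strand. Mir196b, at chr6:52230081-52230165 on the minus strand, overlaps an exon of Hoxa9 on the same strand. The 4 mature miRNAs thus come from all 4 Hox clusters.

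Levels are given as counts and as CPM, counts over the library total, after TMM scaling, a correction for differences in composition between libraries. Libraries held 13849777 to 16907910 counts on mature miRNAs, with 1033 to 1106 miRNAs detected. At this depth 1 count is a low level, and 3 counts, the limit that a count of 0 allows, was taken as the floor of detection. Of the list chosen for neurons as a tissue check, miR-9-5p (99465 to 151638 CPM), miR-128-3p (56461 to 81090 CPM) and miR-124-3p (3006 to 7545 CPM) were abundant in every library. R6/2 shTRAX replicate 3 was far from the other replicates of its group: a chi-square comparison of counts gave 1785 and 1912 per degree of freedom against them, and 30.1 between those. WT shTRAX replicate 1 was the next most distant, at 679 and 786.

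miR-10a-5p was the most abundant of the 4, with a mean of 17.1 CPM, the 350th highest of 1440 miRNAs with any count. miR-10b-5p followed at 2.10 CPM (529th), miR-196b-5p at 0.564 CPM (676th) and miR-196a-5p at 0.207 CPM (799th). The relatives miR-99a-5p (1309 CPM), miR-99b-5p (1291 CPM) and miR-100-5p (426.8 CPM) were far more abundant in the same tissue. Ligation and amplification differ between sequences, so the order of levels between miRNAs is an order of counts, not of molecules. miR-10a-5p exceeded miR-10b-5p in 12 of 12 libraries. miR-196b-5p exceeded miR-196a-5p in all libraries but R6/2 control replicate 2 (2 counts against 6) and R6/2 shTRAX replicate 1 (2 counts each), at low counts throughout. Over libraries the ranges of the 2 members overlapped in both families.

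miR-10a-5p had 226, 251 and 549 counts in WT with control AAV, which are 13, 16.4 and 34.5 CPM. In WT with shTRAX AAV it had 1170, 125 and 92 counts, or 74.6, 8.66 and 5.91 CPM. In R6/2 it had 72, 134 and 223 counts with control AAV (5.28, 9.79 and 16 CPM) and 61, 78 and 137 with shTRAX AAV (4.42, 5.42 and 10.6 CPM). A single library, WT shTRAX replicate 1, held 1170 of the 3118 counts of this miRNA. It was the highest of the 12, and the other replicates of its group were below all 3 WT libraries with control AAV. The R6/2 libraries with shTRAX AAV overlapped those with control AAV.

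miR-10b-5p had 12, 9 and 34 counts in WT with control AAV (0.692, 0.589 and 2.14 CPM) and 111, 22 and 12 in WT with shTRAX AAV (7.08, 1.52 and 0.771 CPM). In R6/2 it had 36, 44 and 11 counts with control AAV (2.64, 3.21 and 0.790 CPM) and 25, 11 and 41 with shTRAX AAV (1.81, 0.764 and 3.18 CPM). WT shTRAX replicate 1 was again the highest of the 12 libraries, and all 4 groups overlapped. The 3 libraries that came next, at 2.64 to 3.21 CPM, were R6/2 libraries of both AAV groups.

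miR-196b-5p had 6, 7 and 12 counts in WT with control AAV, 23, 10 and 3 in WT with shTRAX AAV, 22, 2 and 4 in R6/2 with control AAV, and 2, 4 and 5 in R6/2 with shTRAX AAV. Of its 100 counts, 45 were in WT shTRAX replicate 1 and R6/2 control replicate 1, at 1.47 and 1.61 CPM. miR-196a-5p had 1, 2 and 3 counts in WT with control AAV, 2, 1 and 1 in WT with shTRAX AAV, 11, 6 and 1 in R6/2 with control AAV, and 2, 1 and 4 in R6/2 with shTRAX AAV. These are the counts of its higher precursor row. Only R6/2 control replicates 1 and 2 and R6/2 shTRAX replicate 3 exceeded 3 counts, so in the other 9 libraries it was at or under the floor. The exact 95% Poisson interval of the highest value, 11 counts, is 5.49 to 19.7 counts and covers counting error only.

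**Figure D1:**
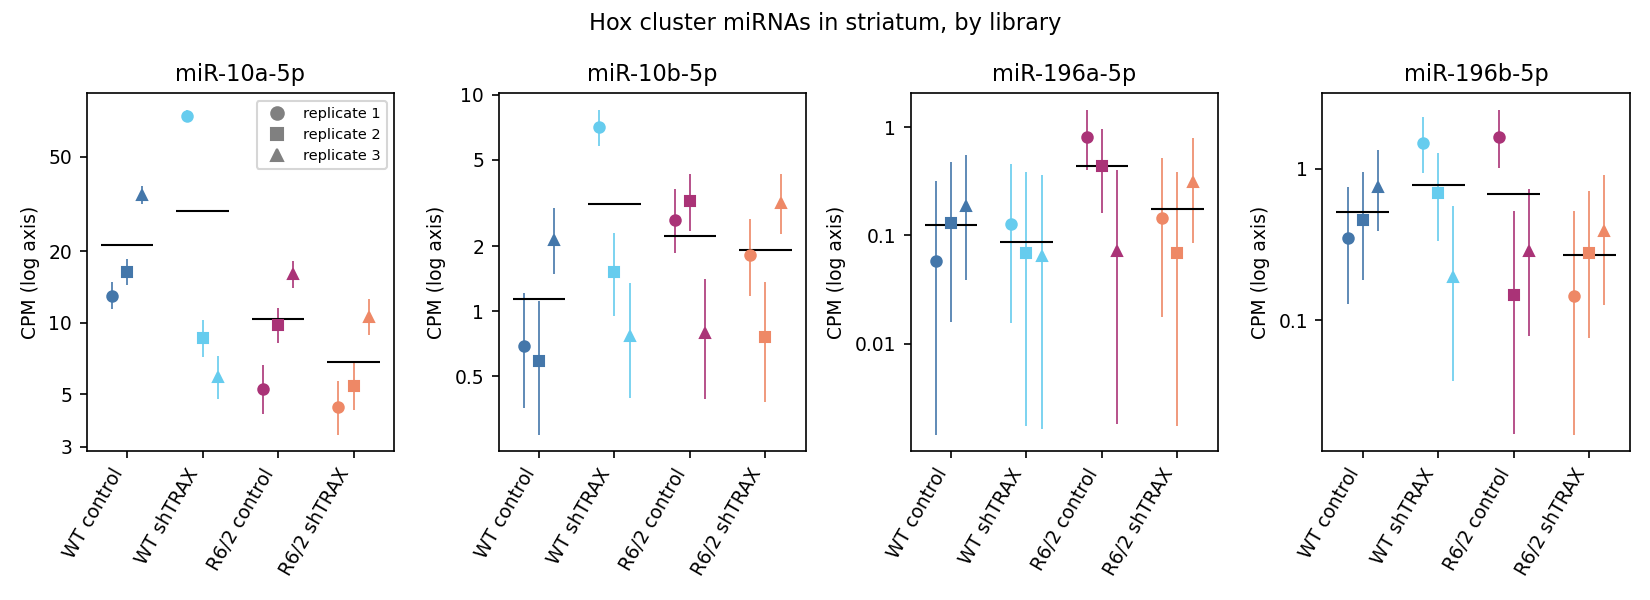
CPM (log axes) of miR-10a-5p, miR-10b-5p, miR-196a-5p and miR-196b-5p in the 12 libraries by group. Points are libraries, bars their exact 95% Poisson intervals (counting error only), and black lines group means. WT shTRAX replicate 1 is the highest library for miR-10a-5p at 74.6 CPM and for miR-10b-5p at 7.08 CPM, while miR-196a-5p is highest in R6/2 control replicate 1 at 0.807 CPM.

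Replicates of a group differed widely in 3 of the members. The within-group standard deviation of log2 CPM over 8 degrees of freedom was 1.17 for miR-10a-5p, 1.20 for miR-10b-5p and 1.15 for miR-196b-5p, against a median of 0.33 over the 689 tested miRNAs. They ranked 10th, 8th and 11th of the 689 by this spread. Low miRNAs vary more through counting alone, but among miRNAs within a factor of 2 of its own level miR-10b-5p ranked 1st of 147, miR-10a-5p 2nd of 127 and miR-196b-5p 6th of 85. Medians at those levels were 0.44, 0.28 and 0.60. These ranks describe the libraries and were looked at after the values were seen. miR-196a-5p did not pass the expression filter and was not ranked.

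**Figure D2:**
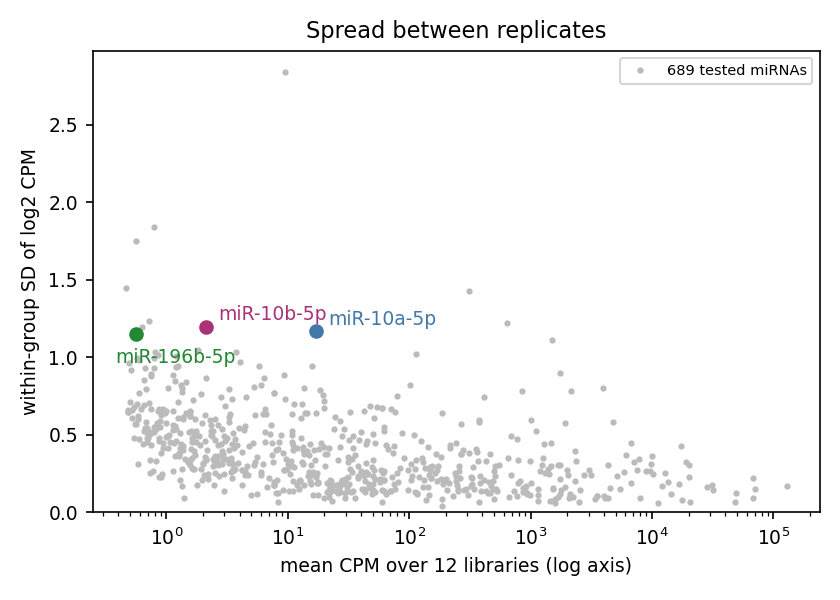
Within-group standard deviation of log2 CPM against mean CPM (log axis) for the 689 tested miRNAs, each a grey point, with the 3 tested members in colour. miR-10a-5p (1.17), miR-10b-5p (1.20) and miR-196b-5p (1.15) lie above most miRNAs of like level, whose medians are 0.28, 0.44 and 0.60.

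The miRNAs closest to miR-10a-5p in library pattern included inflammatory and microglial miRNAs. By Spearman correlation of log2 CPM over 12 libraries, given as a description of the closest 5 of 689 tested miRNAs, these were miR-146a-5p (rho 0.97), miR-155-5p (0.93), miR-5107-3p (0.90), miR-342-3p (0.89) and miR-425-3p (0.88). miR-146a-5p and miR-155-5p are induced by NF-κB signalling in immune cells. After group means were subtracted the 5 were miR-146a-5p (0.93), miR-142a-5p (0.90), miR-155-5p (0.90), miR-223-5p (0.90) and miR-34a-3p (0.88). miR-142a and miR-223 are miRNAs of blood-derived immune cells and microglia. Among these matches miR-5107-3p (0 to 1.98 CPM) and miR-223-5p (0.193 to 1.36 CPM) were low. For miR-146a-5p the rho was 0.94 without the 2 libraries farthest from the median of miR-10a-5p, 1 over the 6 WT libraries and 0.94 over the 6 R6/2 libraries. All values come from the same libraries and share their scaling.

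miR-146a-5p had 3339, 6052 and 7666 CPM in WT with control AAV, 8879, 3209 and 2093 CPM in WT with shTRAX AAV, 1677, 2931 and 5235 CPM in R6/2 with control AAV, and 1173, 2249 and 2519 CPM in R6/2 with shTRAX AAV. Within each group the order of its 3 libraries was that of miR-10a-5p. The highest and lowest libraries, WT shTRAX replicate 1 and R6/2 shTRAX replicate 1, were the same for both miRNAs. Not all microglial miRNAs kept that order. miR-142a-3p had 498, 683 and 232 CPM in R6/2 with shTRAX AAV, and was lowest of the 12 libraries in replicate 3, where miR-10a-5p was highest of its group.

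miR-10a-5p was also set against the list of 6 miRNAs of microglia and inflammation (miR-142a-3p, miR-142a-5p, miR-146a-5p, miR-146b-5p, miR-155-5p and miR-223-3p), none of which was at 0 in any library. The list holds miR-146a-5p, miR-155-5p and miR-142a-5p, and miR-146a-5p alone gave 8879 of the 18042 CPM in WT shTRAX replicate 1, so this relation overlaps the likeness above and is not separate support for it. Their summed level was 6342 to 15002 CPM in WT with control AAV, 4368 to 18042 in WT with shTRAX AAV, 3803 to 10111 in R6/2 with control AAV and 2772 to 4210 in R6/2 with shTRAX AAV. On log2 scales miR-10a-5p correlated with the sum with Pearson's r = 0.93 over 12 libraries (permutation p = 1e-05, the smallest that 100000 resamples can give, adjusted p = 0.00014 over 14 relations) and Spearman's rho = 0.90 (permutation p = 0.00022, adjusted p = 0.00308). Pearson's r was 0.88 without the 2 libraries farthest from the median sum, 0.95 within WT and 0.87 within R6/2. Here and for the pairs of members below, the permutations shuffled all 12 libraries across the groups. Their p-values therefore mix differences between groups with differences between libraries of a group. The 14 relations set miR-10a-5p and miR-10b-5p against the 7 marker lists and were not among the planned tests. For miR-10b-5p the same relation gave r = 0.16 (permutation p = 0.622, adjusted p = 0.791) and rho = -0.03 (permutation p = 0.922, adjusted p = 0.991), with r = -0.49 without the 2 farthest libraries, 0.71 within WT and -0.37 within R6/2.

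**Figure D3:**
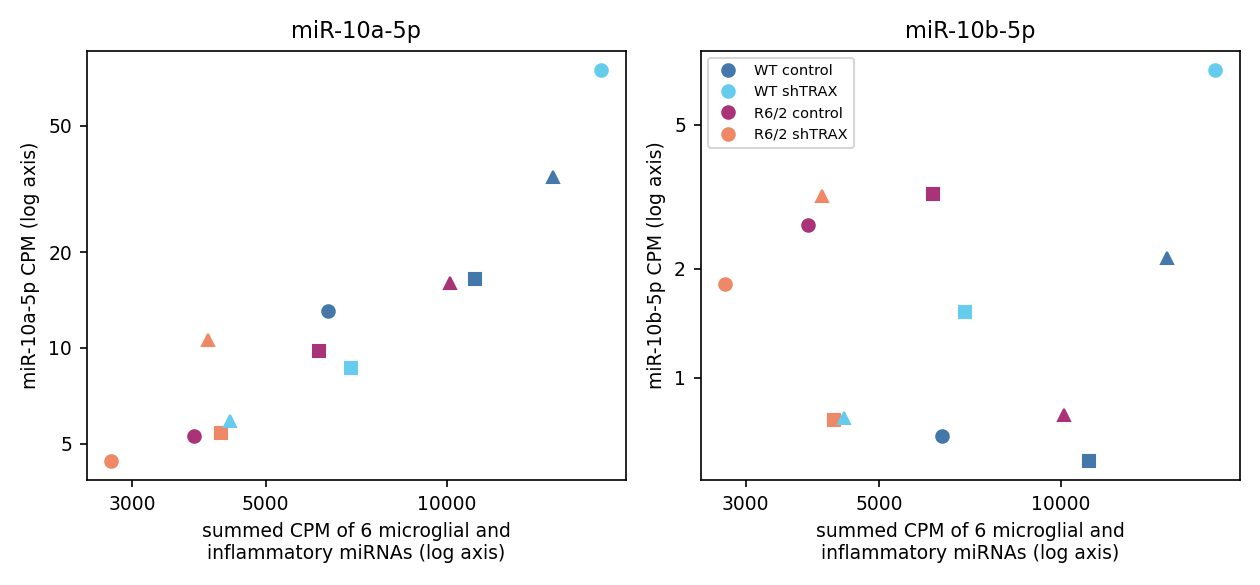
CPM of miR-10a-5p (left) and miR-10b-5p (right) against the summed CPM of 6 miRNAs of microglia and inflammation, all on log axes, with 1 point per library, coloured by group, and circles, squares and triangles for replicates 1, 2 and 3. miR-10a-5p rises along the axis (Pearson's r = 0.93 over 12 libraries), while miR-10b-5p shows no such order (r = 0.16).

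Of the other relations, miR-10a-5p was lower where the vessel list was higher, with Pearson's r = -0.75 (permutation p = 0.00318, adjusted p = 0.0223), Spearman's rho = -0.80 (permutation p = 0.00299, adjusted p = 0.0209), -0.78 without the 2 farthest libraries, -0.89 within WT and -0.49 within R6/2. The 7 vessel miRNAs, miR-126a-3p among them, summed to 29500 to 34720 CPM in the WT libraries and 31825 to 39266 in the R6/2 libraries. The remaining 11 relations did not pass; these were with choroid plexus and ependyma, blood, muscle, epithelium and olfactory tissue, and neurons, and for miR-10b-5p also with vessels. The largest of them for miR-10b-5p were with blood (r = 0.60, permutation p = 0.0395, adjusted p = 0.176; rho = 0.38, permutation p = 0.228, adjusted p = 0.489) and with choroid plexus and ependyma (r = 0.56, permutation p = 0.0577, adjusted p = 0.176; rho = 0.50, permutation p = 0.1, adjusted p = 0.281). Without the 2 farthest libraries these fell to 0.33 and 0.43, and they were 0.59 and 0.89 within WT and 0.82 and 0.31 within R6/2. In tissue RNA, fewer cells of a type and less RNA per cell cannot be told apart, and the part of any cell type in the results below was not tested.

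miR-10b-5p had looser matches. Its closest 5 were miR-199a-3p and miR-199b-3p (rho 0.71 each), whose mature sequences are identical, miR-363-3p (0.63), miR-199a-5p (0.60) and miR-224-5p (0.59). miR-199a-3p matched it within WT (0.94) but with a rho of 0.14 within R6/2. After group means were subtracted the 5 were miR-339-3p (0.82), miR-1298-5p, miR-146b-5p and miR-1949 (0.75 each) and miR-363-3p (0.74).

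Over the 6 pairs of members, looked at after the values were seen, no correlation of log2 levels passed adjustment. miR-10a-5p and miR-10b-5p had Pearson's r = 0.39 (permutation p = 0.213, adjusted p = 0.320) and Spearman's rho = 0.08 (permutation p = 0.801, adjusted p = 0.836). Without WT control replicate 3 and WT shTRAX replicate 1, the farthest libraries, r was -0.31, and it was 0.80 within WT and -0.07 within R6/2. The closest pair was miR-10b-5p and miR-196a-5p, with r = 0.61 (permutation p = 0.0374, adjusted p = 0.224) and rho = 0.66 (permutation p = 0.0236, adjusted p = 0.142), 0.87 without the 2 farthest libraries, 0.46 within WT and 0.88 within R6/2. In that relation 8 of the 12 values of miR-196a-5p are 1 or 2 counts.

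The ratio of miR-10a-5p to miR-10b-5p counts needs no scaling between libraries, and both sequences have 10 G or C among their 23 bases. It was 18.8, 27.9 and 16.1 in WT with control AAV and 10.5, 5.68 and 7.67 in WT with shTRAX AAV. In R6/2 it was 2, 3.05 and 20.3 with control AAV and 2.44, 7.09 and 3.34 with shTRAX AAV. In WT the 3 ratios with shTRAX AAV were all below the 3 with control AAV, and 5 of the 6 R6/2 ratios were below all 3 WT control values. In WT the mean log2 ratio was lower by 1.40 with shTRAX AAV (difference -1.40; exact two-sided permutation p = 0.1, the smallest that 3 against 3 allow; adjusted p = 0.3 over 6 contrasts). Over both AAVs it was 2.13 ± 1.2 in R6/2 and 3.65 ± 0.86 in WT (SD, n = 6 each), a difference of -1.52 with an exact permutation p = 0.0411 and an adjusted p = 0.247. Within AAV groups the difference was -2.03 with control AAV (exact permutation p = 0.3, adjusted p = 0.36; -3.05 without R6/2 control replicate 3) and -1.0 with shTRAX AAV (exact permutation p = 0.2, adjusted p = 0.36). None of the 6 contrasts passed after adjustment. The shTRAX effect in R6/2 was -0.36 (exact permutation p = 0.9, adjusted p = 0.9), and 0.65 without R6/2 control replicate 3, the one R6/2 library above 16.1.

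**Figure D4:**
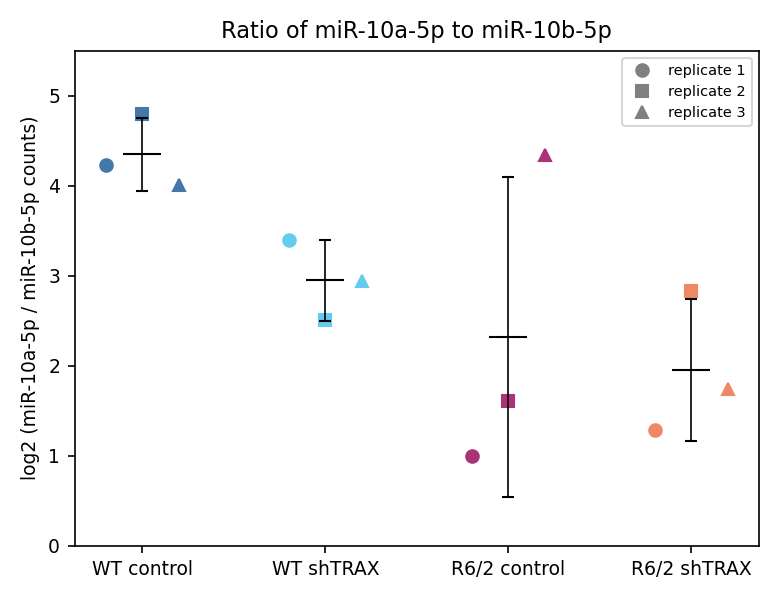
Log2 ratio of miR-10a-5p to miR-10b-5p counts in the 12 libraries by group, with group mean and standard deviation (black, n = 3). The WT control libraries lie at 4.01 to 4.80 and the WT shTRAX libraries at 2.51 to 3.40, while R6/2 control spans 1 to 4.34.

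R6/2 was compared with WT to see whether the Hox miRNAs reported in human disease differ in the mouse model. The human reports named above concern cortex, whereas striatum was measured here. Averaged over both AAVs, edgeR's quasi-likelihood test called 158 of 689 miRNAs at the 0.05 threshold on adjusted p-values (22.9%) and 0 of the 3 tested members. miR-10a-5p had a log2 fold change of -1.58 ± 0.60 (SE), with a Benjamini-Hochberg adjusted p = 0.0895 from edgeR. Its levels were 5.91 to 74.6 CPM in WT and 4.42 to 16 CPM in R6/2. Of the microglia and inflammation list, 6 of 6 members were below 0, with a median of -1.07 against 0.05 for all tested miRNAs, and 1 was called lower (miR-142a-3p, -1.53 ± 0.45, edgeR adjusted p = 0.0282). In the same contrast 11 of 12 choroid plexus and ependyma miRNAs were above 0, with 3 called higher, and 6 of 7 vessel miRNAs, with 3 called higher. All 4 muscle miRNAs were below 0, with 3 called lower, as were 6 of 7 neuron miRNAs, with 2 called lower. Of epithelium and olfactory tissue 8 of 9 were below 0, and of blood 3 of 4, with 0 called in either list. The share called over all tested miRNAs, in either direction, was the 22.9% given above. The part of these lists in the value of miR-10a-5p was not tested. Without WT shTRAX replicate 1 the fold change of miR-10a-5p was -0.57 ± 0.38 (edgeR adjusted p = 0.325). It passed the threshold without WT shTRAX replicate 3 (-1.82, edgeR adjusted p = 0.0367), with DESeq2 (-1.62, adjusted p = 0.0169) and without the expression filter (-1.61, edgeR adjusted p = 0.0431). Over the 6 settings other than the main one, the last 2 among them, 127 to 186 miRNAs were called in this contrast. Without 1 library, 119 to 255 were called.

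miR-10b-5p and miR-196b-5p did not differ detectably in the same contrast, with log2 fold changes of 0.12 ± 0.59 (edgeR adjusted p = 0.902) and -0.57 ± 0.62 (edgeR adjusted p = 0.569). The sign for miR-10b-5p turned with total count scaling and without any of 6 of the 12 libraries. With control AAV alone, 73 of 689 miRNAs were called (10.6%) and none of the 3 members. There miR-10b-5p was 2.22 ± 1.27 CPM in R6/2 and 1.14 ± 0.87 CPM in WT (SD, n = 3 each), a log2 fold change of 0.95 ± 0.87 (edgeR adjusted p = 0.546). miR-10a-5p was at -1.04 ± 0.84 (edgeR adjusted p = 0.510) and miR-196b-5p at 0.39 ± 0.83 (edgeR adjusted p = 0.810). Without R6/2 control replicate 1 miR-196b-5p was at -1.17. Without WT control replicate 3 miR-10b-5p was at 1.81 and miR-10a-5p at -0.46.

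With shTRAX AAV, 95 of 689 miRNAs were called between R6/2 and WT (13.8%), again with none of the 3 members. miR-10a-5p was at -2.13 ± 0.87 (edgeR adjusted p = 0.123), miR-10b-5p at -0.72 ± 0.82 (0.571) and miR-196b-5p at -1.52 ± 0.92 (0.281), with edgeR adjusted p-values in parentheses. DESeq2 called miR-10a-5p here (-2.18, adjusted p = 0.0347). Over the 7 settings other than the main one, DESeq2 among them, 2 to 132 miRNAs were called in this contrast. Without WT shTRAX replicate 1 the values for the 3 members were -0.13, 0.70 and -0.71.

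miR-196a-5p did not pass the expression filter of the count model and was compared by CPM. Fitted without that filter over 1440 miRNAs, it was not called between the genotypes by edgeR. The log2 fold change was 1.31 ± 0.62 averaged over AAV (edgeR adjusted p = 0.273). It was 1.76 ± 0.77 with control AAV (edgeR adjusted p = 0.339) and 0.85 ± 0.95 with shTRAX AAV (edgeR adjusted p = 0.650). These values depend on the prior count. Counts of miR-196a-5p summed to 25 over the 6 R6/2 libraries and 10 over the 6 WT libraries. The mean was 0.307 ± 0.285 CPM in R6/2 and 0.106 ± 0.052 CPM in WT (SD, n = 6 each; exact two-sided permutation p = 0.0974, adjusted p = 0.42 over 7 tests). Of the 25 counts 17 came from R6/2 control replicates 1 and 2. With control AAV alone the means were 0.439 ± 0.368 and 0.126 ± 0.066 CPM (SD, n = 3 each; exact permutation p = 0.3, adjusted p = 0.42). With shTRAX AAV they were 0.175 ± 0.123 and 0.087 ± 0.035 CPM (exact permutation p = 0.2, adjusted p = 0.42), and 3 against 3 cannot go below 0.1.

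The shTRAX effect was read within each genotype. In R6/2, 0 of 651 miRNAs were called (0.00%) with edgeR and 13 with DESeq2, while 68 had an unadjusted p under 0.05. miR-10a-5p was at -0.60 ± 0.50 (edgeR adjusted p = 0.520) and miR-10b-5p at -0.20 ± 0.65 (edgeR adjusted p = 0.868). Levels of miR-196b-5p were 0.270 ± 0.122 CPM with shTRAX and 0.683 ± 0.810 CPM with control AAV (SD, n = 3 each; exact permutation p = 0.6, adjusted p = 0.6), and those of miR-196a-5p 0.175 ± 0.123 and 0.439 ± 0.368 CPM (exact permutation p = 0.3, adjusted p = 0.42). In the authors' deposited table for R6/2 the signed fold changes were -1.56 for miR-10a-5p, -1.17 for miR-10b-5p, -2.48 and -2.55 for the rows of miR-196a-5p and -2.53 for miR-196b-5p, with adjusted p-values of 0.821 to 0.955, and none of the 4 members was in the authors' deposited list of 83 miRNAs.

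In WT, 1 of 665 miRNAs was called (0.150%) and 0 of 3 members. miR-10b-5p had the largest value of the 3, a log2 fold change of 1.46 ± 0.84 (edgeR adjusted p = 0.707), with miR-10a-5p at 0.49 ± 0.89 (0.909) and miR-196b-5p at 0.60 ± 0.66 (0.835), edgeR adjusted p-values in parentheses. All 3 rested on 1 library. Without WT shTRAX replicate 1 miR-10b-5p was at -0.02, miR-196b-5p at -0.27 and miR-10a-5p at -1.58 (edgeR adjusted p = 0.0736), and 57 miRNAs were called in place of 1. That library also had the highest summed microglia and inflammation list of the 12, 18042 CPM, and the lowest vessel list, 29500 CPM. Among the 6 WT libraries it had the highest choroid plexus and ependyma list, 5940 CPM against 2153 to 3767, and the lowest neuron list, 213181 CPM. Their part in these values was not tested. The authors' deposited table for WT gives miR-10b-5p a signed fold change of 2.89 with a p-value of 0.0463 and an adjusted p-value of 0.994. miR-196a-5p was at 0.087 ± 0.035 CPM with shTRAX and 0.126 ± 0.066 CPM with control AAV (SD, n = 3 each; exact permutation p = 0.6, adjusted p = 0.6).

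The shTRAX effect did not differ detectably between the genotypes for any tested member. The difference of the effects, R6/2 minus WT, was -1.09 ± 1.19 for miR-10a-5p, -1.67 ± 1.19 for miR-10b-5p and -1.91 ± 1.24 for miR-196b-5p on the log2 scale (edgeR adjusted p = 0.597, 0.483 and 0.479). Here 0 of 689 miRNAs were called (0.00%) with edgeR and 2 with DESeq2, while 61 had an unadjusted p under 0.05. Without WT shTRAX replicate 1 the values were 0.88, -0.27 and -1.11. Without R6/2 control replicate 1 that of miR-196b-5p was -0.37, and without WT control replicate 3 that of miR-10b-5p was -2.55. Averaged over both genotypes, shTRAX gave -0.06 ± 0.59 for miR-10a-5p, 0.62 ± 0.60 for miR-10b-5p and -0.36 ± 0.62 for miR-196b-5p (edgeR adjusted p = 0.979, 0.692 and 0.838), where 3 of 689 miRNAs (0.435%) were called.

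**Figure D5:**
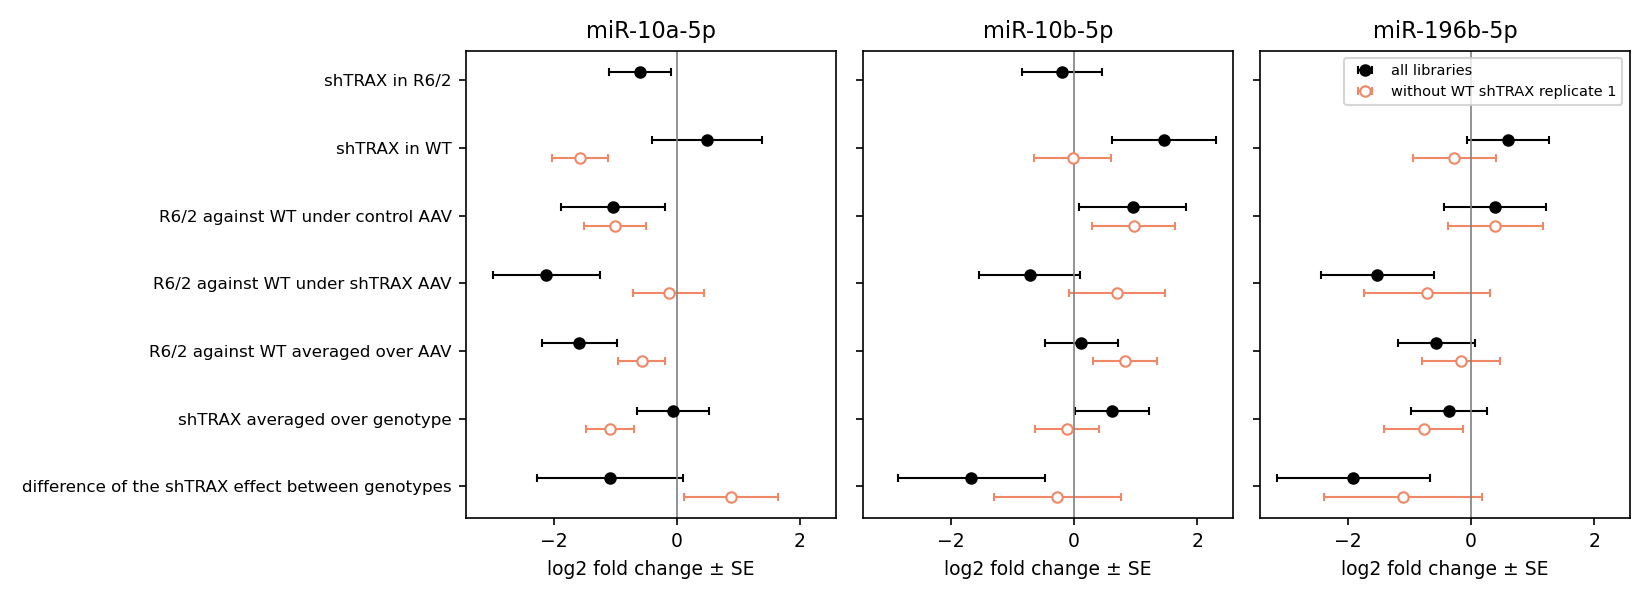
Log2 fold change from edgeR for the 3 tested members in each comparison, ± SE derived from the F statistic. Filled points are all libraries, and open points leave out WT shTRAX replicate 1, where that library is in the fit. For miR-10a-5p the shTRAX effect in WT moves from 0.49 to -1.58, and the R6/2 against WT difference averaged over AAV from -1.58 to -0.57.

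Other products of the Hox hairpins were rare. miR-10a-3p, the opposite arm of the Mir10a hairpin, had 6, 7 and 20 counts in WT with control AAV, 32, 3 and 3 in WT with shTRAX AAV, 4, 3 and 8 in R6/2 with control AAV, and 1, 1 and 6 in R6/2 with shTRAX AAV. It was highest in WT shTRAX replicate 1 and WT control replicate 3, the same libraries as miR-10a-5p. miR-10b-3p had 7 counts in all, 3 of them in WT shTRAX replicate 1. The 3p arms of the miR-196 hairpins and miR-615-5p had 0 counts in every library, which, by the floor given above, allows up to 3 counts in each.

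miR-615-3p, from an intron of the Hoxc5 gene model at chr15:103014969-103014990 on the plus strand, was low as well. It is shown because its counts lay almost wholly in 1 genotype.
miR-615-3p: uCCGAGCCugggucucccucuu
It had 3, 6 and 1 counts in R6/2 with control AAV and 0, 4 and 4 in R6/2 with shTRAX AAV. In WT it had 0 counts in all 3 libraries with control AAV and 0, 1 and 0 with shTRAX AAV. The sums were 18 counts in R6/2 and 1 in WT, a ratio of 20.6 after scaling with an exact 95% counting interval of 3.25 to 858. Over libraries the mean was 0.220 ± 0.161 CPM in R6/2 and 0.012 ± 0.028 CPM in WT (SD, n = 6 each; exact two-sided permutation p = 0.0152, adjusted p = 0.0606 over 4 related miRNAs, a test added after the counts were seen). It did not pass the expression filter. Fitted without that filter over 1440 miRNAs, edgeR gave a log2 fold change of 3.80 ± 1.03 with an adjusted p = 0.0264, a value that depends on the prior count. In this contrast, averaged over AAV, the 6 settings other than the main one, the unfiltered fit among them, called 127 to 186 miRNAs. The unfiltered fit gave an edgeR adjusted p = 0.117 with control AAV alone and an edgeR adjusted p = 0.328 with shTRAX AAV. Only 3 libraries, all R6/2, exceeded 3 counts.

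In the same family of 4 tests miR-1247-5p had 18 counts in R6/2 and 15 in WT (exact permutation p = 0.268, adjusted p = 0.358), miR-10a-3p 23 and 71 (exact permutation p = 0.190, adjusted p = 0.358) and miR-10b-3p 4 and 3 (exact permutation p = 0.697, adjusted p = 0.697). Of the 5 abundant sequence relatives, miR-99a-5p, miR-99b-5p, miR-100-5p, miR-125a-5p and miR-125b-5p, none was called between the genotypes averaged over AAV, with a median log2 fold change of 0.31 against 0.05 for all tested miRNAs. None of these relatives has the seed of miR-10a-5p and miR-10b-5p. The distance of miR-125a-5p and miR-125b-5p from miR-10 was not measured. With shTRAX AAV 1 of 5 was called higher in R6/2 (7.98% of all tested were), miR-125a-5p at 1.08 ± 0.32 (edgeR adjusted p = 0.0450). It was 12364 to 13646 CPM in WT and 17229, 17300 and 47672 CPM in R6/2, the last in replicate 3, the library far from its group. Without that library it was called at 0.42 ± 0.06 (edgeR adjusted p = 0.000997). Without any 1 library of the other 3 groups it was not called (edgeR adjusted p = 0.0615 to 0.121).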

How the data were processed

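Small RNA of mouse striatum was sequenced in 12 libraries. The library kit tags cDNA with molecular identifiers, per the labels. The submitters' processing notes list bcl2fastq 2.20, Trimmomatic and GRCm38. Which aligner and counter were used, and how identifiers were handled, is not given in the sources used here. Per the file headers, the authors deposited raw counts in 2059 rows, 1 for each mature miRNA of a precursor. The RPM values they deposited beside them equal the count over the column total to within 0.118 and were not tested. The authors' deposited signed fold changes (their score column) and p-values are quoted only as theirs. For the 81 mature miRNAs with several precursor rows, only the row of highest mean entered.

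edgeR 4.0.16 (R 4.3.3) was run with TMM scaling, its quasi-likelihood test, filterByExpr (minimum count 10) and Benjamini-Hochberg adjustment over all tested miRNAs, threshold 0.05. shTRAX effects were fitted within a genotype, other contrasts over all 12 libraries. The quasi-likelihood test gives no SE. Each SE of an edgeR value was derived as the absolute log2 fold change over the square root of the F statistic. The ratio of miR-10a-5p to miR-10b-5p, and members that failed the filter, were tested by exact permutation over libraries in SciPy 1.17.1. DESeq2 1.42.0 and other scalings, filters and library sets were alternatives. The edgeR procedure was tested on simulated counts. No pair of replicates agreed within sampling noise (chi-square per degree of freedom 30.1 to 1912). Intervals and floors cover counting error only.

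All 4 members are named. Of related lists, other Hox products are named with their counts, sequence relatives where they pass the threshold, and the 5 miRNAs most like miR-10a-5p and miR-10b-5p by Spearman correlation. Marker lists covered choroid plexus and ependyma, blood, microglia and inflammation, vessels, muscle, epithelium and olfactory tissue, and neurons. The members and lists were chosen with earlier results of these data known. Sequences and hairpin positions are from RefSeq, build GRCm38.p6, and Hox gene models from GENCODE on GRCm38.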

Additional observations from a re-analysis of the deposited data

How the results depend on the processing

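Low counts limit miR-196a-5p, miR-196b-5p and the minor arms, and 3 libraries a group limit every contrast. Of 129 other settings over the member contrasts, 124 kept direction and side of the threshold. For miR-10a-5p between R6/2 and WT, the averaged contrast passed without the expression filter (-1.61) and with DESeq2 (-1.62), and the contrast under shTRAX AAV passed with DESeq2 (-2.18). miR-10b-5p in the averaged contrast turned to -0.0058 with total count scaling. The cause was not tested. Of 210 values without 1 library, 188 were the same and 21 turned. All 26 settings of the ratio and of the miR-196 levels kept direction and side of the threshold, as did 100 of 102 values without 1 library. In the contrasts of 3 against 3 libraries the exact permutation p cannot go below 0.1, also with 1 library left out. There only the direction could change.

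Replicate numbers were not taken to pair the samples. Same-numbered libraries had correlations of their deviations from -0.30 to 0.26. Differently numbered libraries were not compared in this way, so these values cannot exclude a pairing. With the replicate block, shTRAX in WT gave miR-10a-5p -0.40 (0.49 without it), and no member was called. Under the block 0 miRNAs were called for shTRAX in R6/2, 1 in WT, 59 for R6/2 against WT under control AAV, 59 under shTRAX AAV and 127 averaged, 3 for shTRAX averaged and 0 for the difference of effects.

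Other counts of calls moved as follows. DESeq2 gave 13 for shTRAX in R6/2, 4 in WT, 13 averaged and 2 for the difference of effects. Without the filter, 4 were called for shTRAX in WT and 46 for R6/2 against WT under control AAV. With the other choice of libraries in the fit, 1 was called for shTRAX in R6/2, 0 in WT, 232 for R6/2 against WT under control AAV and 2 under shTRAX AAV. Without 1 library, calls ran from 0 to 4 for shTRAX in R6/2, from 0 to 57 in WT, from 40 to 210 for R6/2 against WT under control AAV, from 38 to 141 under shTRAX AAV, from 119 to 255 averaged, and from 3 to 11 for shTRAX averaged over genotype. The highest counts for R6/2 against WT under control AAV and averaged came without R6/2 shTRAX replicate 3.

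Without 1 library, log2 fold changes of miR-10a-5p ran from -1.82 to -0.57 for R6/2 against WT averaged, from -1.58 to 0.98 for shTRAX in WT, from -1.09 to 0.19 for shTRAX averaged and from -1.69 to 0.88 for the difference of effects. Those of miR-10b-5p ran from -0.16 to 0.83 for R6/2 against WT averaged, from -1.28 to 0.70 under shTRAX AAV, from -0.75 to 0.19 for shTRAX in R6/2, from -0.024 to 2.24 in WT and from -0.11 to 1.02 for shTRAX averaged. For the difference of effects miR-10b-5p ran from -2.55 to -0.27 and miR-196b-5p from -2.40 to -0.37, and under control AAV miR-10b-5p ran from 0.59 to 1.81. Other values of miR-196b-5p ran from -1.17 to 0.86 for R6/2 against WT under control AAV, from -1.98 to -0.71 under shTRAX AAV, from -0.27 to 1.06 for shTRAX in WT and from -0.77 to 0.43 for shTRAX averaged. The log2 ratio of miR-10a-5p to miR-10b-5p ran from -1.02 to 0.65 for shTRAX in R6/2 and from -3.05 to -1.38 for R6/2 against WT under control AAV. The miR-196b-5p difference for shTRAX in R6/2 ran from -0.681 to 0.054 CPM. The miR-10b-3p difference between genotypes ran from -0.0036 to 0.048 CPM, and that of miR-615-3p from 0.164 to 0.252 CPM. For miR-615-3p the adjusted exact permutation p = 0.0173 came without R6/2 shTRAX replicate 1, the only R6/2 library with 0 counts of it.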
